A study of Homo sapiens with 6 samples.

Results

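The 47 genes described here encode the working parts of the lysosome, the acidic compartment in which cells take apart lipids, glycans and proteins. They comprise 9 genes of sphingolipid breakdown, 8 of glycosaminoglycan breakdown, 7 of glycoprotein glycan breakdown, 3 of glycogen, lipid ester and thioester breakdown, 11 of proteolysis, 7 of the lysosomal membrane and sterol export, and the transcription factors TFEB and TFE3. They were picked by function from the 60666 genes that the table lists outside alternative contigs, with the values of the same comparison already known, the fall of GALC among them. Their differences between the groups are therefore a description and serve as a test of nothing.

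The samples were RPE1 cells, a line of human retinal pigment epithelial cells immortalized with hTERT. They carried a lentiviral construct from which doxycycline induces (Tet-On) a short hairpin RNA directed at OFD1, a protein of centriolar satellites and centrosomes. By the labels 3 samples grew without doxycycline (control, genotype given as WT) and 3 with doxycycline at 200 ng/mL for 72 h (OFD1-depleted, genotype given as OFD1 knockdown). All came from the line with the Tet-On shOFD1 construct, and no sample had doxycycline with a control hairpin. Doxycycline itself, effects of the hairpin on other genes and the loss of OFD1 therefore cannot be told apart. The sources used here do not say whether the line was 1 clone or a pool. The labels give the tissue as retina, yet 5 of 8 photoreceptor markers, SAG and CRX among them, were at 0 in every sample, and 5 of 7 markers of mature pigment epithelium stayed under 1 FPKM, while the keratin gene KRT8 stood at 146.4 FPKM ± 6.01 (SD, n = 3) in the control. The remaining pigment epithelium markers were OTX2, at 1.56 to 2.1 FPKM, and BEST1, at 4.33 FPKM in OFD1-depleted replicate 2 and at most 0.0475 FPKM elsewhere. FPKM counts the sequenced fragments of a gene after scaling for transcript length and for how many fragments that sample had mapped.

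OFD1 itself was at 3.34, 3.62 and 3.44 FPKM in the control and at 0.795, 0.763 and 1.43 FPKM in the OFD1-depleted samples. Its mean in the OFD1-depleted samples was 28.7% of the control mean, with OFD1-depleted replicate 3 the highest of its group. The groups did not overlap. The 6 libraries held an estimated 37500000 to 44000000 fragments each, an approximate figure because the table gives no read counts. The estimate was the depth at which the largest share of low values in single-exon genes fell on whole fragments. That share was only 14.1% to 18.0%, so the figure is uncertain. The share of mitochondrially encoded transcripts was 11.9% ± 2.79 of the summed FPKM in the control and 17.1% ± 1.97 in the OFD1-depleted samples (SD, n = 3 each). Genes of proliferating cells moved with the groups. By the threshold given below, 5 of 5 listed, MKI67, TOP2A, RRM2, CCNE2 and TPX2, were lower, against 11.9% of all genes tested. Their summed level ranged from 185.3 to 207.1 FPKM in the control and from 45.9 to 56.8 FPKM in the OFD1-depleted samples. Markers of macrophages and leukocytes, cells rich in lysosomes, summed to 0.557 to 0.93 FPKM in the control and 0.734 to 0.952 FPKM in the OFD1-depleted samples, with AIF1 and TYROBP at 0 in every sample. The part that proliferation or the mitochondrial share had in the lysosomal values was not tested.

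Most lysosomal hydrolases are made in the endoplasmic reticulum, receive a mannose 6-phosphate tag in the Golgi and are carried to the lysosome by receptors that read the tag. Inside, exoglycosidases and sulfatases take a glycan chain apart from its end in a fixed order, so that the loss of a single enzyme stops the chain at its substrate. Inherited loss of these enzymes gives the lysosomal storage diseases, such as Krabbe disease (GALC), Maroteaux-Lamy syndrome (ARSB), Sanfilippo syndrome type B (NAGLU) and Niemann-Pick disease type C (NPC1 or NPC2). TFEB and TFE3 are basic helix-loop-helix factors that enter the nucleus when the kinase mTORC1 is off and bind a motif, TCACGTGA in its palindromic form, that was first described in the promoters of lysosomal genes. Their activity is set largely by where the proteins are in the cell, which RNA levels do not show.

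The promoters of the 47 genes give a property of the list that is independent of the RNA values. RefSeq promoters of 300 bases (250 before to 50 after the start site, GRCh38.p14) were matched for 34 of the 47 genes by symbol. The motifs searched were TCACGTGA and its core CACGTG, which both read the same on either strand. Every TCACGTGA contains a CACGTG and is counted under both. TCACGTGA was found in 5 of the 34 promoters (14.7%), against 1.18% of all 27305 genes with a promoter in the table (0.98% of its 35116 promoters), and CACGTG in 10 of 34 (29.4%), against 8.77% of those genes (7.26% of the promoters). The motif was defined on genes of this class, so that difference is not an independent result. The following windows of 30 bases show each TCACGTGA, and the CACGTG of ARSB, the 1 gene past the threshold as lower that held the core. They are written along the gene's strand with the motif in capitals.

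LAMP1: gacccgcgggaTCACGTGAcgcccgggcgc
LAMP1: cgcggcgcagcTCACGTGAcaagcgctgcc
MCOLN1: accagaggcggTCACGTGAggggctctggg
MCOLN1: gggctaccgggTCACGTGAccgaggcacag
GAA: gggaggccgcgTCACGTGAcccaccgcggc
GAA: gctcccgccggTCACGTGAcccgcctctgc
GALNS: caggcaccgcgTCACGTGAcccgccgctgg
CTSA: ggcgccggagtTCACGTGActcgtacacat
ARSB: taattcaataagCACGTGactaaaggattt

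The LAMP1 windows lie at chr13:113297199-113297228 and chr13:113297226-113297255 on the plus strand, with the first base of the motif at -29 and -2 from the start site. Those of MCOLN1 lie at chr19:7522571-7522600 and chr19:7522598-7522627, plus strand, at -42 and -15. Those of GAA lie at chr17:80101493-80101522 and chr17:80101538-80101567, plus strand, at -77 and -32. The GALNS window lies at chr16:88857104-88857133, minus strand, at -175, the CTSA window at chr20:45891298-45891327, plus strand, at -26, and the ARSB window at chr5:78986101-78986130, minus strand, at -160. LAMP1 held 6 copies of CACGTG in its 300 bases, and CTSD, CTSF, CD63 and NEU1 held the core without the longer motif. Of the 5 genes with TCACGTGA, LAMP1, MCOLN1, GALNS and CTSA had log2 fold changes of -0.12, -0.13, -0.05 and -0.11, and GAA had -0.39, none of them past the threshold. Among the genes past the threshold, 7 that were lower had a promoter in the table, 0 of them with TCACGTGA and 1 with CACGTG, and 2 that were higher had one, with neither motif. Among the other 25 genes with a promoter, 5 held TCACGTGA and 9 held CACGTG. A match is a string of letters and says nothing about binding, and the motif may lie outside the 300 bases.

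Lysosomal genes were well expressed in the control. Each of the 47 had a mean of at least 1 FPKM, 35 reached 10 FPKM and 7 reached 100 FPKM, and the median of their control means was 19.3 FPKM, against 8.73 FPKM for the 12025 genes tested. CD63, a tetraspanin of late endosomes and lysosomes, had the highest level, 626.1 FPKM ± 47.6 (SD, n = 3). PSAP, the precursor of the saposins that present lipids to hydrolases, followed at 595.2 FPKM ± 71.0, and the aspartic protease gene CTSD at 390.8 FPKM ± 82.9. CD63 and PSAP did not differ beyond their spread. NPC2, the soluble carrier of cholesterol, stood at 205.1 FPKM ± 7.23, and the cysteine proteases CTSB and CTSC at 181.3 FPKM ± 25.7 and 164.6 FPKM ± 9.77, whose ranges overlapped. At the low end were GALC at 4.98 FPKM ± 0.158, the alpha-L-iduronidase gene IDUA at 4.29 FPKM ± 1.03, TFEB at 2.51 FPKM ± 0.359 and the beta-mannosidase gene MANBA at 1.91 FPKM ± 0.293. TFE3 RNA, at 28.9 FPKM ± 0.683, was well above that of TFEB in each sample. The plot of every sample shows these levels by role.

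**Figure D1:**
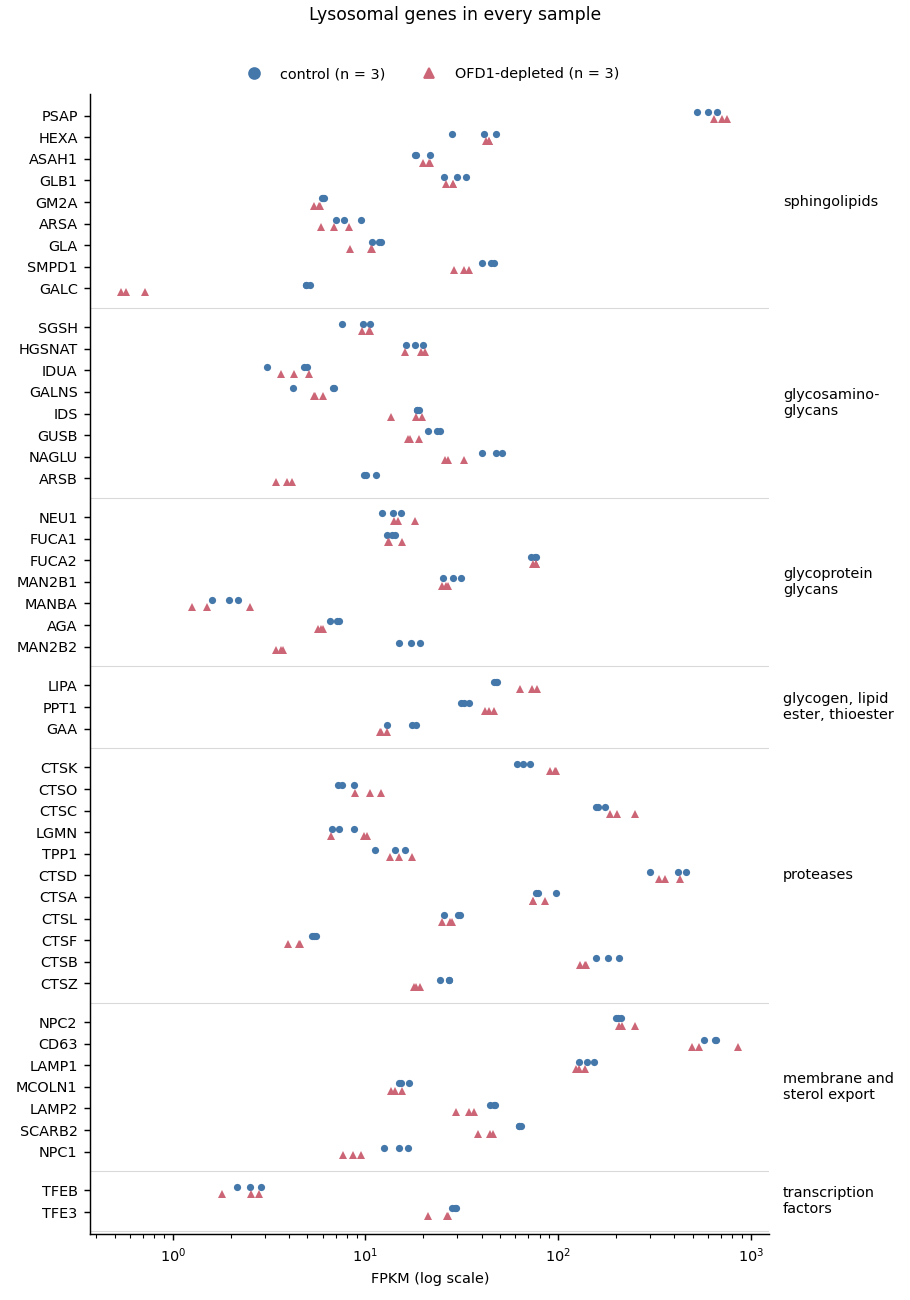
FPKM of the 47 lysosomal genes (log axis) in each of 3 control samples (circles) and 3 OFD1-depleted samples (triangles), with genes grouped by role and ordered within a role by their fold change. GALC, MAN2B2 and ARSB show the widest gaps between the groups, and CD63 has 1 OFD1-depleted sample at 860.0 FPKM, above the others.

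The summed level of the 47 genes was 3313, 2983 and 3503 FPKM in the control and 3268, 3581 and 3075 FPKM in the OFD1-depleted samples. These ranges overlapped. The means were 3266.3 FPKM ± 263.1 and 3308.0 FPKM ± 255.4 (SD, n = 3 each). As a share of the FPKM of all genes without those of the mitochondrial genome, the sum was 0.901% ± 0.099 in the control and 0.873% ± 0.00656 in the OFD1-depleted samples. CD63, PSAP and CTSD made up between 46.7% and 53.8% of the sum in each sample.

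Gene by gene, 9 of the 47 lysosomal genes were past the threshold as lower in the OFD1-depleted samples (19.1%) and 3 as higher (6.38%), while 35 were not past it. The threshold was an adjusted p under 0.05 in limma's test of log2(FPKM + 0.1) across all 12025 genes, of which 11.9% were past it as lower and 5.07% as higher. The lower genes were GALC, MAN2B2, ARSB, NPC1, NAGLU, SCARB2, CTSZ, SMPD1 and LAMP2, and the higher genes LIPA, CTSK and PPT1. In 17 genes each OFD1-depleted sample was below each control sample, against 22.3% of all genes tested, and in 5 genes above, against 13.8%. The median log2 fold change was -0.11 over the 47 genes and -0.03 over all genes tested, with 30 of the 47 below 0 and 17 above it, and the values ran from -2.84 (GALC) to 0.58 (LIPA). By the log2 fold change, 3 genes (GALC, MAN2B2 and ARSB) were lower by at least 1 and 0 were higher by as much. With values scaled to the same total (TPM), the split was 12 lower and 1 higher, where all genes tested gave 1988 lower and 268 higher in place of 1429 and 610, with CTSK as the gene still past the threshold as higher, and LIPA and PPT1 at log2 fold changes of 0.43 and 0.27 (limma, adjusted p = 0.0514 and 0.168). The smaller calls depended on which samples were used, and leaving out 1 sample also changed the counts over all genes tested. Without control replicate 1, 5 lysosomal genes and 904 of all genes tested were lower, and without OFD1-depleted replicate 1, 6 and 1309. Leaving out OFD1-depleted replicate 2 gave 10 and 1741. As higher, 1 lysosomal gene was past the threshold without control replicate 1, control replicate 3 or OFD1-depleted replicate 1, with 251, 244 and 321 of all genes tested.

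**Figure D2:**
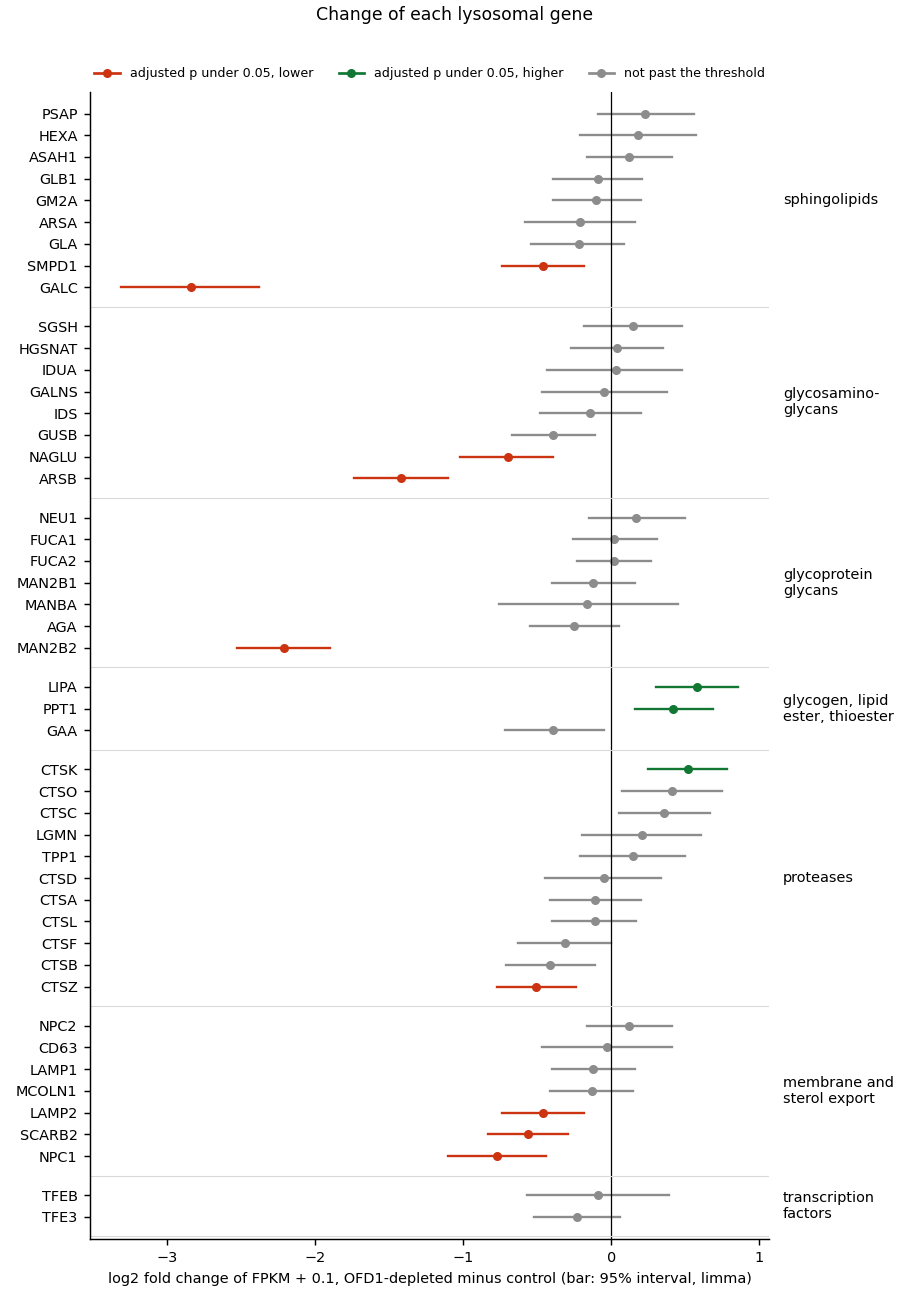
Log2 fold change of FPKM + 0.1 for the 47 lysosomal genes, OFD1-depleted minus control (points), with 95% intervals from limma (bars), grouped by role. Genes past the threshold as lower are red, as higher green, and GALC, MAN2B2 and ARSB lie furthest from 0.

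GALC encodes galactosylceramidase, which removes galactose from galactosylceramide and psychosine, lipids best known from myelin. The gene (ENSG00000054983) lies at chr14:87837820-87993665 on the minus strand of GRCh38. Its level was 4.89, 4.89 and 5.16 FPKM in the control and 0.716, 0.576 and 0.541 FPKM in the OFD1-depleted samples. The groups were far apart and the spread within each was small. The OFD1-depleted mean was 12.3% of the control mean. The log2 fold change of FPKM + 0.1 was -2.84 (SE 0.211, limma, adjusted p = 1.6e-05). This size depended on the pseudocount, the OFD1-depleted values being under 1 FPKM. It was -1.89 with a pseudocount of 1 in place of 0.1, and -3.02 with 0.01. GALC was past the threshold under each of the 16 alternatives that gave it a value. The genes that overlap GALC had a mean under 0.1 FPKM.

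Of the other 8 genes of sphingolipid breakdown, 1 was past the threshold. With GALC, 2 of the 9 were lower (22.2%, against 11.9% of all genes tested). SMPD1, acid sphingomyelinase, which makes ceramide from sphingomyelin, was at 44.9, 40.1 and 46.7 FPKM in the control and at 34.3, 32.5 and 28.9 FPKM in the OFD1-depleted samples. Its groups did not overlap and its mean was 72.7% of the control (log2 fold change -0.46, limma, adjusted p = 0.0315), past the threshold under 11 of 17 alternatives. ASAH1, acid ceramidase, which splits the ceramide, had a log2 fold change of 0.12 and was not past the threshold. The same held for the glycolipid enzymes GLA, alpha-galactosidase A, at -0.22, GLB1, beta-galactosidase, at -0.09, ARSA, arylsulfatase A, at -0.21, and HEXA, which acts on the ganglioside GM2, at 0.18. ARSA supplies GALC with its lipid in the breakdown of sulfatide, and its values of 7.02, 7.78 and 9.43 FPKM in the control and 8.22, 5.9 and 6.84 FPKM in the OFD1-depleted samples overlapped. The activators PSAP, 0.23, and GM2A, -0.10, which hold lipids for these enzymes, were not past the threshold either. In GLA and GM2A each OFD1-depleted sample was below each control sample, though in GLA the nearest values both rounded to 10.8 FPKM. Opposite GLA lies the ribosomal protein gene RPL36A at a mean of 189.2 FPKM, and how shared reads were divided is not stated, so the GLA value is uncertain.

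MAN2B2 encodes an alpha-mannosidase of the lysosome that acts on the core of N-linked glycans. The gene (ENSG00000013288) lies at chr4:6575189-6623362 on the plus strand, with no other gene of the table over it. It was at 17.3, 14.9 and 19.2 FPKM in the control and at 3.64, 3.43 and 3.72 FPKM in the OFD1-depleted samples, which were close to each other. The mean was 21.0% of the control (log2 fold change -2.21, SE 0.143, limma, adjusted p = 1e-05), past the threshold under each of 17 alternatives. Its relative MAN2B1, the main lysosomal alpha-mannosidase, was at 28.3 FPKM ± 3.03 in the control and 26.0 FPKM ± 1.03 in the OFD1-depleted samples (log2 fold change -0.12), with overlapping groups. The ratio of MAN2B2 to MAN2B1 within a sample, which no scaling of the whole sample can change, was 0.605, 0.594 and 0.617 in the control and 0.135, 0.131 and 0.15 in the OFD1-depleted samples. The other glycoprotein genes were not past the threshold. AGA, which cuts the link between glycan and asparagine, had a log2 fold change of -0.25, though its groups did not overlap. The log2 fold change was -0.16 in MANBA, 0.17 in the sialidase gene NEU1, and 0.02 in each of the fucosidase genes FUCA1 and FUCA2.

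ARSB encodes arylsulfatase B, which takes the 4-sulfate from N-acetylgalactosamine in dermatan and chondroitin sulfate. The gene (ENSG00000113273) lies at chr5:78777209-78986087 on the minus strand, with no other gene of the table over it. It was at 10.1, 9.88 and 11.3 FPKM in the control and at 4.15, 3.45 and 3.92 FPKM in the OFD1-depleted samples. The groups were well separated, with a mean of 36.8% of the control (log2 fold change -1.42, SE 0.143, limma, adjusted p = 8.6e-05), past the threshold under each of 17 alternatives. NAGLU encodes the alpha-N-acetylglucosaminidase of heparan sulfate breakdown (chr17:42536241-42544449, plus strand). It was at 47.3, 40.4 and 51.2 FPKM in the control and at 25.8, 32.5 and 26.8 FPKM in the OFD1-depleted samples. Its mean was 61.3% of the control (log2 fold change -0.70, SE 0.143, limma, adjusted p = 0.00633), again past the threshold under each of 17 alternatives.

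The enzymes named here that act beside NAGLU on heparan sulfate did not pass the threshold. They are not a complete set, and the sulfatase gene ARSK, in a further list below, was past it as lower. IDS and IDUA, which remove the sulfate from iduronic acid and then the iduronic acid itself, had log2 fold changes of -0.14 and 0.03. SGSH, which removes the N-linked sulfate, had 0.15, and HGSNAT, the transferase that prepares the glucosamine for NAGLU, had 0.04. In IDS, OFD1-depleted replicate 2 at 13.5 FPKM was below the other samples, which lay between 18.3 and 19.6 FPKM. GUSB, beta-glucuronidase, was at 21.2, 23.4 and 24.5 FPKM in the control and 18.9, 16.6 and 17.1 FPKM in the OFD1-depleted samples. Its groups did not overlap, but its log2 fold change of -0.39 missed the threshold (limma, adjusted p = 0.0568). Its pseudogene GUSBP1 is listed at a mean of 2.34 FPKM, and reads may have been split between such copies. GALNS, which removes the 6-sulfate in keratan sulfate, had -0.05.

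Of the 3 genes of glycogen, lipid ester and thioester breakdown, 2 were past the threshold as higher (66.7%, against 5.07% of all genes tested) and 0 as lower. LIPA, lysosomal acid lipase, which frees cholesterol and fatty acids from lipoprotein lipids, was at 47.9, 47.8 and 46.7 FPKM in the control and at 77.5, 63.0 and 73.3 FPKM in the OFD1-depleted samples. Its groups did not overlap and its mean was 150.1% of the control (log2 fold change 0.58, limma, adjusted p = 0.00912), past the threshold under 16 of 17 alternatives. On the opposite strand within LIPA's bounds lies IFIT3, at 8.48 FPKM in the control and 7.99 FPKM in the OFD1-depleted samples. PPT1, which removes palmitate from proteins, was at 31.2, 34.6 and 32.5 FPKM in the control and at 46.6, 41.5 and 43.8 FPKM in the OFD1-depleted samples (log2 fold change 0.42, limma, adjusted p = 0.0345), without overlap but past the threshold under only 9 of 17 alternatives. GAA, the acid alpha-glucosidase of glycogen, was at 17.5, 12.9 and 18.3 FPKM in the control and at 12, 12.9 and 11.9 FPKM in the OFD1-depleted samples (-0.39, limma, adjusted p = 0.107), so that control replicate 2 all but met the other group.

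Of the 11 protease genes, 1 was past the threshold as lower and 1 as higher (9.09% each, against 11.9% and 5.07% of all genes tested). CTSZ, a carboxypeptidase of the cathepsin family, was at 27.0, 27.2 and 24.5 FPKM in the control and at 17.8, 19.2 and 18.2 FPKM in the OFD1-depleted samples (log2 fold change -0.51, limma, adjusted p = 0.0152). CTSK, the collagen-degrading cathepsin best known from osteoclasts, was at 65.7, 71.4 and 61.1 FPKM in the control and at 95.9, 97.1 and 90.2 FPKM in the OFD1-depleted samples (log2 fold change 0.52, limma, adjusted p = 0.0145). Neither pair of groups overlapped, and each gene was past the threshold under 14 of 17 alternatives. The ratio of CTSK to CTSZ was 2.43, 2.62 and 2.49 in the control and 5.37, 5.04 and 4.96 in the OFD1-depleted samples. CTSZ overlaps NELFCD on the opposite strand, which was at 23.1 FPKM in the control and 27.9 FPKM in the OFD1-depleted samples.

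CTSB, a cysteine protease, was at 180.2, 156.1 and 207.6 FPKM in the control and at 137.3, 139.7 and 130.2 FPKM in the OFD1-depleted samples, without overlap (log2 fold change -0.41, limma, adjusted p = 0.0661), and was past the threshold under 7 of 17 alternatives. CTSC, which activates serine proteases of granules, and CTSO were each above the control in every OFD1-depleted sample, with log2 fold changes of 0.36 and 0.41 that missed the threshold (limma, adjusted p = 0.112 and 0.0938). CTSF was below the control in each OFD1-depleted sample (-0.31, limma, adjusted p = 0.17). The groups overlapped in CTSD, -0.05, CTSL, -0.11, CTSA, the protective protein of beta-galactosidase and sialidase, -0.11, TPP1, the tripeptidyl peptidase lost in a childhood neuronal lipofuscinosis, 0.15, and LGMN, legumain, which cuts after asparagine, 0.21. A second gene on the same strand overlaps CTSD at a mean of 15.8 FPKM, far under the CTSD level.

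Of the 7 membrane and sterol export genes, 3 were past the threshold as lower (42.9%, against 11.9% of all genes tested) and 0 as higher. NPC1 encodes the membrane transporter that takes cholesterol from NPC2 and passes it out of the lysosome. It was at 14.9, 12.5 and 16.6 FPKM in the control and at 8.59, 7.61 and 9.49 FPKM in the OFD1-depleted samples. The groups did not overlap and the mean was 58.3% of the control (log2 fold change -0.77, SE 0.151, limma, adjusted p = 0.00536), past the threshold under each of 17 alternatives. NPC2 had a log2 fold change of 0.12, and the ratio of NPC1 to NPC2 was 0.0733, 0.0587 and 0.0839 in the control and 0.0415, 0.0305 and 0.0442 in the OFD1-depleted samples. RMC1, which overlaps NPC1 on the opposite strand, was at 7.88 FPKM in the control and 9.68 FPKM in the OFD1-depleted samples, the other direction.

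SCARB2 encodes LIMP-2, an abundant protein of the lysosomal membrane. It was at 62.5, 64.0 and 62.7 FPKM in the control and at 46.0, 38.5 and 44.5 FPKM in the OFD1-depleted samples (log2 fold change -0.56, limma, adjusted p = 0.0102), past the threshold under 16 of 17 alternatives. LAMP2, which with LAMP1 makes up much of the protein of the lysosomal membrane, was at 47, 44.2 and 46.7 FPKM in the control and at 34.5, 29.6 and 36.5 FPKM in the OFD1-depleted samples (-0.46, limma, adjusted p = 0.0297), past it under 10 of 17. Neither gene's groups overlapped. LAMP1 went from 141.0 FPKM ± 12.8 to 129.7 FPKM ± 7.72 (SD, n = 3 each) with overlapping groups, a log2 fold change of -0.12. MCOLN1, the calcium channel TRPML1, had -0.13, and shares bounds with PNPLA6 on the same strand at a mean of 26.8 FPKM, so its level is uncertain. CD63 had -0.03, but its OFD1-depleted samples were spread widely, at 539.3, 860.0 and 491.8 FPKM.

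The transcription factors were not past the threshold. TFEB was at 2.52, 2.86 and 2.15 FPKM in the control and at 2.8, 2.54 and 1.8 FPKM in the OFD1-depleted samples, with overlap (log2 fold change -0.09, 95% interval -0.57 to 0.39). TFE3 was at 29.1, 28.1 and 29.4 FPKM in the control and at 26.4, 26.8 and 21.0 FPKM in the OFD1-depleted samples. Each OFD1-depleted value of TFE3 was below the control values, with a log2 fold change of -0.23 (95% interval -0.52 to 0.06, limma, adjusted p = 0.275). These intervals leave room for modest changes in either gene.

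Ratios within a sample were taken for 7 pairs of related genes, chosen after their values were seen, because a factor that scales a whole sample cancels in them. Beside the pairs above, GALC to GLB1, both galactosidases, was 0.163, 0.192 and 0.154 in the control and 0.0252, 0.022 and 0.019 in the OFD1-depleted samples, a difference of -2.95 on the log2 scale. ARSB to ARSA, both arylsulfatases, was 1.44, 1.27 and 1.2 against 0.505, 0.584 and 0.573, and LAMP2 to LAMP1 was 0.334, 0.345 and 0.304 against 0.249, 0.24 and 0.286. In these pairs the groups did not overlap. FUCA2 to FUCA1, by contrast, had a mean of 5.48 in both groups. A ratio shows that 2 genes changed unequally and not which of them changed.

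**Figure D3:**
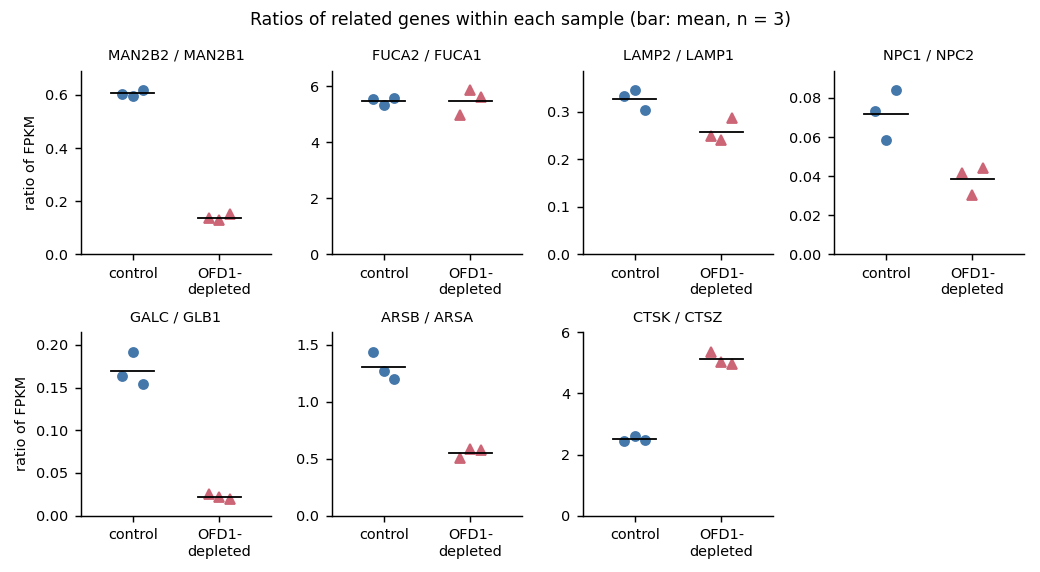
Ratio of the FPKM of 2 related genes within each of 3 control samples (circles) and 3 OFD1-depleted samples (triangles), for 7 pairs, with bars at the group means and each axis starting at 0. The ratio of MAN2B2 to MAN2B1 drops from a mean of 0.606 to 0.139 and that of FUCA2 to FUCA1 stays at 5.48.

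Samples of a group held unequal places over these genes. Control replicate 2 was the lowest control in 24 of the 47 genes (51.1%), against 30.1% of all genes tested, and control replicate 3 was the highest in 29 (61.7%), against 29.9%. Among the OFD1-depleted samples, replicate 1 was the lowest in 3 of 47 (6.38%, against 12.9% of all genes tested). CTSD, with 416.7, 298.0 and 457.6 FPKM in the control, and GALNS, with 6.89, 4.23 and 6.75 FPKM, show the dip of control replicate 2. FUCA2, at 72.3, 75.5 and 76.3 FPKM, does not.

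A further 92 genes of the organelle, in 5 lists, were set beside the 47, and 86 of them were tested. Of these, 12 were past the threshold as lower (14.0%) and 5 as higher (5.81%), near the 11.9% and 5.07% of all genes tested, with a median log2 fold change of 0.06. Among the other lysosomal enzymes, 7 of 19 tested were past it as lower (36.8%, against 11.9% of all genes tested) and 0 as higher, with a median of -0.30. GGH, which trims the glutamate chain of folates, was at 31.0, 37.9 and 27.4 FPKM in the control and 19.7, 17.2 and 20.8 FPKM in the OFD1-depleted samples (log2 fold change -0.72, limma, adjusted p = 0.00691). DNASE2, the acid nuclease, had -0.69 (limma, adjusted p = 0.00722). CTSH, SCPEP1 and ARSK were also past the threshold as lower. With no filter on low values, 1 gene of this list was past it, without control replicate 1 or control replicate 3, 2 were, and without control replicate 2 or OFD1-depleted replicate 3, 4 were. Array weights gave 11. ACP5 was listed at 0 in every sample, and CTSV and HYAL1 were under 1 FPKM.

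The genes that tag and sort hydrolases had 3 of 13 past the threshold as lower (23.1%, against 11.9% of all genes tested) and 0 as higher (against 5.07%), with a median of -0.15. NAGPA, the uncovering enzyme that completes the mannose 6-phosphate tag, was at 7.25, 9.42 and 10.2 FPKM in the control and 3.58, 3.19 and 3.25 FPKM in the OFD1-depleted samples (log2 fold change -1.38, SE 0.164, limma, adjusted p = 0.00023). The sorting receptor gene SORT1 had -0.75 (limma, adjusted p = 0.00539) and VPS35, of the retromer that returns receptors to the Golgi, -0.65 (limma, adjusted p = 0.0134). GNPTAB and GNPTG, the transferase of the first tagging step, had 0.16 and -0.04, and the receptors M6PR and IGF2R -0.15 and -0.24, none past the threshold.

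The genes of the proton pump that makes the lysosome acidic had a median of 0.26, with 2 of 16 genes past the threshold as higher (12.5%, against 5.07% of all genes tested), 0 as lower, and 7 without overlap above the control, against 13.8% of all genes tested. ATP6V1F was at 72.1, 78.9 and 72.3 FPKM in the control and 101.8, 150.5 and 99.7 FPKM in the OFD1-depleted samples (log2 fold change 0.63, limma, adjusted p = 0.0231), and ATP6V1D had 0.45 (limma, adjusted p = 0.0391). With TPM scaling 1 pump gene was past the threshold as higher and 1 as lower, and 0 were higher with no filter, with limma without the trend, or without control replicate 1 or control replicate 3. Without control replicate 2, OFD1-depleted replicate 1 or OFD1-depleted replicate 3, and with the same total without mitochondrial genes, 1 was higher, while quantile normalization gave 4 and array weights 7. Of 23 other membrane proteins, 2 were past the threshold as lower and 1 as higher (8.7% and 4.35%, against 11.9% and 5.07% of all genes tested), and 20 were not past it. SLC36A1, a proton-coupled amino acid carrier, and SLC17A5, the sialic acid exporter, were lower at -1.02 and -0.70 (limma, adjusted p = 0.00694 and 0.00486). SPNS1, a lysophospholipid carrier, was higher at 0.46 (limma, adjusted p = 0.0317). In the list of Ragulator, Rag and folliculin genes, through which mTORC1 holds back TFEB and TFE3, 2 of 15 tested were past it as higher (13.3%, against 5.07% of all genes tested) and 0 as lower. The number higher was 1 with no filter, with TPM scaling, with the same total without mitochondrial genes, and without any 1 of the control samples or OFD1-depleted replicate 1, and it was 5 without OFD1-depleted replicate 2, 4 with quantile normalization or array weights, and 3 with median-of-ratios scaling. RRAGB, a Rag GTPase, was at 5.84, 5.58 and 5.73 FPKM in the control and 11.1, 9.72 and 9.16 FPKM in the OFD1-depleted samples (log2 fold change 0.79, limma, adjusted p = 0.00242). FLCN, folliculin, was at 5.36, 5.37 and 4.99 FPKM in the control and 10.1, 7.23 and 7.54 FPKM in the OFD1-depleted samples (log2 fold change 0.64, limma, adjusted p = 0.0191), past the threshold under 10 of 17 alternatives. RRAGD, TFEC and ZKSCAN3 were under 1 FPKM.

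**Figure D4:**
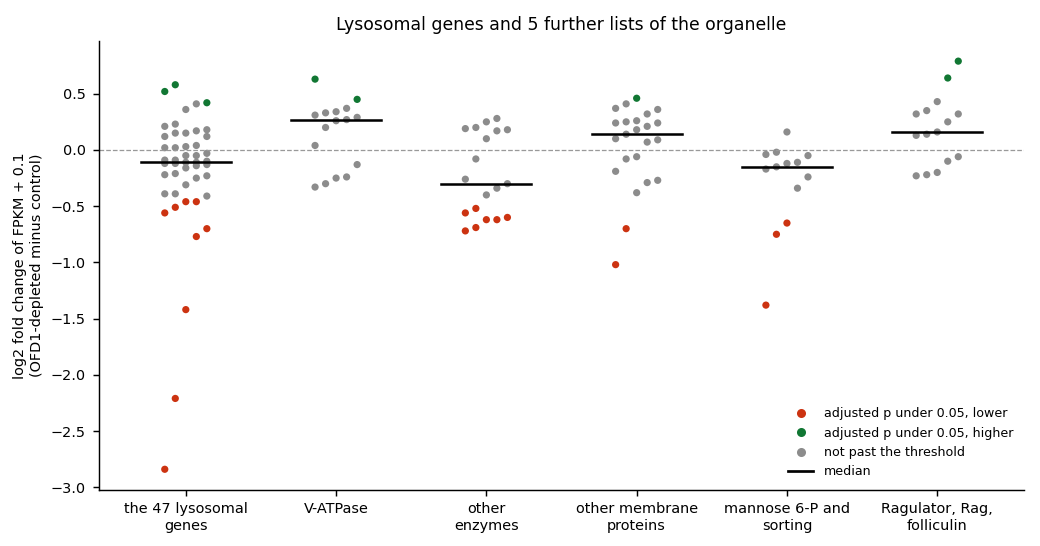
Log2 fold change of FPKM + 0.1, OFD1-depleted minus control, for the 47 lysosomal genes and for 5 further lists of the organelle (points, coloured by whether they passed the threshold), with bars at the medians. The 47 genes have a median of -0.11 and the longest lower tail, the other enzymes a median of -0.30, and the proton pump a median of 0.26.

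Of the 47 genes, 12 overlap another gene with a mean of at least 1 FPKM, which limits how their values can be read. Among the genes past the threshold these were NPC1, CTSZ and LIPA. GALC, MAN2B2, ARSB, NAGLU, SCARB2, SMPD1, LAMP2, CTSK and PPT1 were not among the 12.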

How the data were processed

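The deposited table gave FPKM per gene and sample. By the methods and the submitters' processing notes, the authors aligned 150-base paired-end reads of directional libraries with HISAT2 (2.0.5) to Ensembl GRCh38 and computed FPKM with StringTie. Whether counting used strand is not given in the sources used here. Groups and replicate numbers came from the labels. The study calls its samples biological replicates, while the labels do not name separate cultures, so p-values measure the spread between these samples, which may be technical. Limma (3.58.1, R 4.3.3) with a variance trend was run on log2(FPKM + 0.1) for the 12025 genes that averaged 1 FPKM or more over the 6 samples, and p-values were adjusted by Benjamini and Hochberg over all of them. The script was tested on simulated data. Promoters came from RefSeq.

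Members and lists were chosen with earlier results of these data known. The genes named were OFD1, the 47 genes, list genes at 0 or under 1 FPKM, and the 3 or fewer genes of lowest p in each further list. The further enzymes past the threshold were named after their values were seen. The same number did not pair the samples. Some genes of the lists enter the counts but are not reported here by name.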

Additional observations from a re-analysis of the deposited data

How the results depend on the processing

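Results were recomputed under 17 alternatives, 6 of which left out a sample. With no filter on low values, 823 genes were lower and 260 higher. The summed FPKM of all genes was 412083.3 ± 3324.5 in the control and 457036.3 ± 32068.8 in the OFD1-depleted samples (SD, n = 3 each), and TPM scaling sets these totals equal. With TPM scaling, which moved the median log2 fold change of all genes from -0.032 to -0.176, 268 genes and 1 of the lysosomal genes were higher, and 36 of the 47 were below 0 in place of 30. With quantile normalization 1093 genes were higher. With array weights, 2263 genes were lower and 1693 higher, with 13 lysosomal genes lower and 5 higher. Leaving out each sample in turn gave 867 to 1741 genes lower, 244 to 1077 higher, 5 to 10 lysosomal genes lower and 1 to 4 higher. Why the totals differed and the cause of the other shifts were not tested. With the replicate number as a block (replicate block), 1534 genes were lower and 762 higher, with 10 and 3 lysosomal genes, but samples of the same number did not deviate together (correlations 0.0579, 0.0481 and 0.011). Among the 47 genes and OFD1, no gene past the threshold changed sign under these alternatives. Other genes were not checked for this. Of 810 values of the 47 genes and OFD1, 774 stayed within 1 SD of the reported value. Of 204 counts in lists, 152 stayed within 1.5 times. A read-count test could not be run on FPKM, and 3 samples per group limit the precision.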
